A study of Homo sapiens with 6 samples.

Results

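The p53 axis genes are 9 genes, MDM2, MDM4, CDKN1A, TP53I3, TP53INP1, AEN, ZMAT3, CCNG1 and PLK3, taken by their symbols from a table of 16953 genes, and all 9 were present. They were measured by RNA sequencing of the small cell lung cancer line H1048, of human origin, with 3 samples given ISP-I (isovalerylspiramycin I, a macrolide) at 10 µM and 3 given the solvent DMSO, both for 48 h and both labelled as wild type. The values are the authors' own comparison of libraries D, E and F with libraries A, B and C. No label states which set received ISP-I, so each difference below sets D to F over A to C and is not assigned to a treatment. Values per library could not be tied to samples and were not analysed here, so levels, the spread between replicates and overlap between the sets are not given. The series' design calls the 3 samples of each treatment biological replicates.

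The transcription factor p53 is held low by MDM2, a ubiquitin ligase that marks it for degradation, and by the related protein MDM4, which blocks its transactivation. When DNA damage or other stress frees it, p53 activates genes that halt the cell cycle, repair DNA, alter metabolism or promote death, and it also activates MDM2, which closes a feedback loop. Several p53 targets, CDKN1A among them, can also be transcribed without p53.

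The upstream sequences of 4 of these genes are shown because they carry, or lack, letters of the p53 response element and of general promoter elements, and the genes differ in how they moved. A p53 response element is built from paired copies of a decamer of 10 bases (purines, a C, a pair of A or T, a G, pyrimidines), here called the p53 decamer. Each line below is the 250 bases before a RefSeq transcription start on the plus strand of GRCh38.p14, read 5′ to 3′. For MDM2 the start farthest downstream was taken, whose upstream bases are the internal promoter known to answer to p53 (chr12:68808774-68809023). The other windows are AEN (chr15:88621090-88621339), CDKN1A (chr6:36678464-36678713) and CCNG1 (chr5:163437321-163437570). Capitals mark p53 decamers with at most 1 mismatch outside the central C and G in MDM2 and AEN, the GC box letters GGGCGG in CDKN1A, and CCAAT on either strand in CCNG1.
MDM2: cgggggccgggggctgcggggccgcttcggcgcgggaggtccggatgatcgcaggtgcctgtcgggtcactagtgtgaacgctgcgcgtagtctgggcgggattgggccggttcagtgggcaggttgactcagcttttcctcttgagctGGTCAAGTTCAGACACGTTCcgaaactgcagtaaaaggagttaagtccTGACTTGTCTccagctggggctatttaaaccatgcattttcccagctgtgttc
AEN: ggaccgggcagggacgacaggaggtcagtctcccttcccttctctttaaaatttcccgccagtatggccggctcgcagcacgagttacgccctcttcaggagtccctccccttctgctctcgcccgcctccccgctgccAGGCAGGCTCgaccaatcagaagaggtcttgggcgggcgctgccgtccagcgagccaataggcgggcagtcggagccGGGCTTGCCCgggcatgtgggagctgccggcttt
CDKN1A: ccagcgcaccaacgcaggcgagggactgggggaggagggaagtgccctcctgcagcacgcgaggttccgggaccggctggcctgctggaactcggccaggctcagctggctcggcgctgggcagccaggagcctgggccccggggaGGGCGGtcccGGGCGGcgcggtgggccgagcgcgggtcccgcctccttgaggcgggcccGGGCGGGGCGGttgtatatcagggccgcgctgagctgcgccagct
CCNG1: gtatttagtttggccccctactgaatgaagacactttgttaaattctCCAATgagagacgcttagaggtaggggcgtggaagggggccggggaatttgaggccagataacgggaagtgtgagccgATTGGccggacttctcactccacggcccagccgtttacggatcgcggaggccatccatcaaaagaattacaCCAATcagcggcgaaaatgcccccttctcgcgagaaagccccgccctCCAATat

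The MDM2 window held 3 such decamers, beginning 101, 91 and 53 bases before the start, the first 2 directly adjoining. A pair of decamers with 0 to 13 bases between them, each with at most 1 mismatch, occurred in 1.57% of 35116 promoter windows, and among the 8 members with a window only in those of the downstream MDM2 starts. AEN held 1 exact decamer 34 bases before its start, as did 5.57% of windows, and a second with a mismatch at 111 bases. With at most 1 mismatch, single decamers were common (39.3% of windows), and ZMAT3 held 1. The windows of CDKN1A, CCNG1, PLK3, TP53I3 and MDM4 held none. The CDKN1A elements known to bind p53 lie farther upstream than this window reaches. CDKN1A had 4 GGGCGG matches on either strand, of which the last 2 overlap (7.63% of windows had at least 4), and CCNG1 had 4 CCAAT matches (0.874% of windows had at least 4). The motif marked was chosen separately for each gene, and these letters were not particular to CDKN1A and CCNG1. CCNG1 and PLK3 also had 1 GGGCGG match, and AEN had 1 beside 2 CCAAT matches. Some windows of MDM2 and ZMAT3 held both motifs. At least 1 match occurred in 42.6% of all windows for GGGCGG and 32.0% for CCAAT. The AP-1 letters TGACTCA, searched on both strands, were present in the downstream MDM2 windows and in no other window of a member (4.20% of all windows). These matches describe letters in a window, not binding, and their part in the differences below was not tested.

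Among the 9 genes, CDKN1A, PLK3 and AEN were 3.82-fold to 5.65-fold higher in libraries D to F, MDM2 was slightly higher, and CCNG1, TP53INP1 and TP53I3 were lower. MDM4 and ZMAT3 did not pass the test. A gene was called at an adjusted p under 0.05 in the authors' deposited table, where DESeq2 is the test named by the processing notes. By that rule 4 members were higher and 3 lower, 77.8% of 9, beside a background of 57.6% of the 15976 genes with an adjusted p, of which 29.7% were higher and 27.9% lower. Most genes of the table were thus called, and no test was run on the members as a group. Their median log2 fold change was -0.15 and that of all genes with an adjusted p was 0.05. In absolute size the medians were 0.99 for the members and 0.67 for all genes. Being from bulk RNA, a difference in RNA per cell and one in the share of cells that express a gene cannot be told apart.

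The tables hold no standard errors. Those given here as implied standard errors, and the 95% intervals made from them, follow from each fold change and its p under the assumption that the authors' p is a two-sided Wald p, and they rest on 3 libraries in each set.

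**Figure D1:**
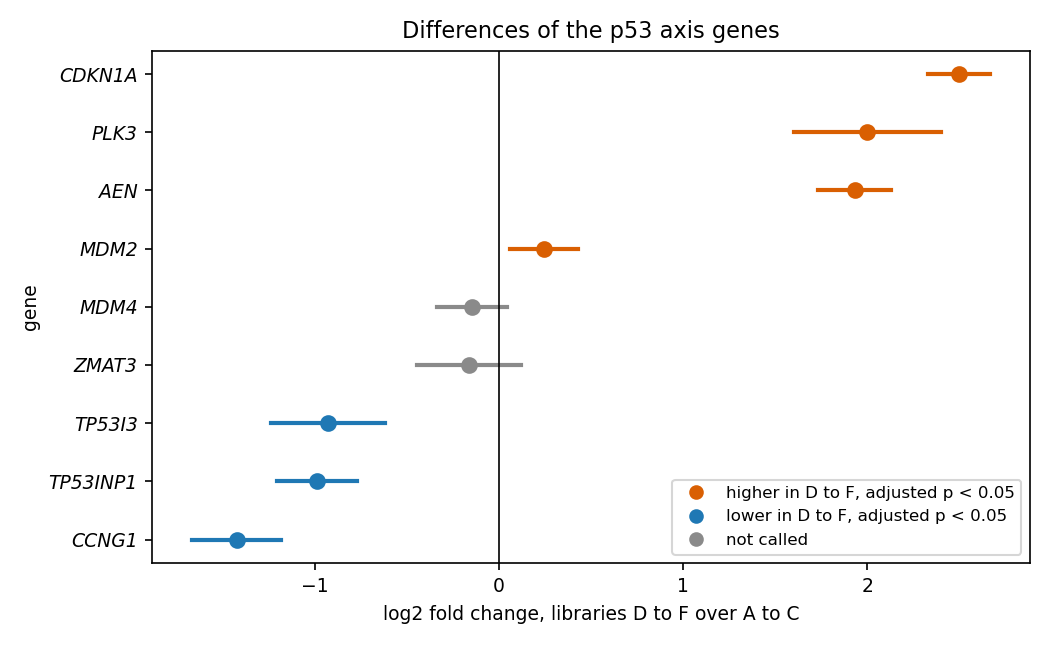
Log2 fold change of the 9 p53 axis genes, libraries D to F over A to C, from the authors' deposited table; points are the fold changes, lines the implied 95% intervals, and colour the call at an adjusted p under 0.05. CDKN1A, PLK3 and AEN lie between 1.93 and 2.50, MDM2 at 0.25, MDM4 and ZMAT3 have intervals that span 0, and TP53I3, TP53INP1 and CCNG1 lie between -1.42 and -0.93.

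Of the members that restrain p53, MDM2 was slightly higher and MDM4 was not called. MDM2 (ENSG00000135679.23, chromosome 12, 68808176 to 68850686) was 1.19-fold higher in D to F, a log2 fold change of 0.25 with an implied standard error of 0.0947 and an adjusted p of 0.0178 in the authors' deposited table. Its interval on the fold scale was 1.04 to 1.35, and the call ended at an adjusted p threshold of 0.01. MDM4 (chromosome 1, 204516379 to 204558120) had a log2 fold change of -0.15, with an interval of -0.33 to 0.04 and an adjusted p of 0.188 in the authors' deposited table, which on the fold scale is an interval of 0.793 to 1.03. The MDM2 value sums transcripts of all its starts, so that output of the internal promoter shown above is not separated from that of the upstream one. Of the 13284 exonic bases of MDM2 in GENCODE 29, 5.91% overlap exons of an antisense gene, 3.31% those of a processed pseudogene on the same strand and 1.00% those of CPM on the opposite strand, and whether counting used strand is not stated in the labels.

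The genes that act on the cell cycle split. CDKN1A, which encodes the cyclin-dependent kinase inhibitor p21 (chromosome 6, 36676460 to 36687339), had the largest difference of the 9 members. It was 5.65-fold higher in D to F (log2 fold change 2.50, implied standard error 0.0856, adjusted p = 2.01e-184 in the authors' deposited table) and ranked 26 of 15976 genes by p and 1381 by size of the fold change. The noncoding gene DINOL on the opposite strand shares 4.79% of its exonic bases. PLK3, a stress-responsive Polo-like kinase (chromosome 1, 44800225 to 44805990), was higher by 2.00 on the log2 scale, with the widest implied standard error of the members (0.203) and an adjusted p of 8.88e-22 in the authors' deposited table; TCTEX1D4 on the opposite strand shares 2.24% of its exonic bases. CCNG1, which encodes cyclin G1, an activator of MDM2 through the phosphatase PP2A (chromosome 5, 163437569 to 163446151), went the other way and was 2.68-fold lower in D to F (log2 fold change -1.42, implied standard error 0.124, adjusted p = 2.07e-29 in the authors' deposited table). It had the largest reduction of the members and stood at the 8.37th percentile of fold changes.

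Paralogs of these genes, from lists of relatives, are set beside them. The list for cyclin G, TP53INP, ZMAT and AEN, members included, had 4 genes higher and 5 lower of 13. That is 69.2% called, beside 57.6% of all genes. Of the ZMAT relatives, ZMAT5 was called higher (log2 fold change 0.80), whereas ZMAT3 itself, ZMAT1, ZMAT2 and ZMAT4 were not called. CCNG2, the other cyclin G, was 4.35-fold lower (adjusted p = 2.74e-61 in the authors' deposited table), and the related cyclin I gene CCNI had a log2 fold change of -0.45 and was also called lower. In the Polo-like kinase family PLK2 (2.05), PLK3 (2.00), PLK5 (1.34) and the mitotic kinase PLK1 (0.22) were called higher and PLK4 (-0.18) was not called, as log2 fold changes. For the 5 family genes that is 80% called, also beside 57.6% of all genes.

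Among the members tied to cell death and RNA control, AEN alone was higher. AEN, an exonuclease that acts in apoptosis (chromosome 15, 88621296 to 88632282), was 3.82-fold higher in D to F (log2 fold change 1.93, implied standard error 0.101, adjusted p = 2.65e-79 in the authors' deposited table). Its relatives ISG20 (1.42) and ISG20L2 (0.60) were called higher as well. TP53INP1, a stress-induced nuclear protein that promotes p53 phosphorylation and autophagy (chromosome 8, 94925972 to 94949411), was 1.98-fold lower (log2 fold change -0.99, implied standard error 0.111, adjusted p = 3.79e-18 in the authors' deposited table), and TP53INP2, which acts in autophagy, was at -0.71 and called lower. TP53I3, a quinone oxidoreductase that generates reactive oxygen species (chromosome 2, 24077433 to 24085861), was 1.90-fold lower (log2 fold change -0.93, implied standard error 0.158, adjusted p = 1.82e-08). FAM228B on the opposite strand shares 3.46% of the exonic bases of TP53I3. ZMAT3, an RNA-binding zinc finger protein that controls splicing and RNA stability (chromosome 3, 179017223 to 179072279), had a log2 fold change of -0.16 with an interval of -0.44 to 0.12 and was not called (adjusted p = 0.356 in the authors' deposited table).

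In the order of fold changes, CDKN1A, PLK3 and AEN stood at the 93.8th, 91.1st and 90.8th percentiles of all genes with an adjusted p, MDM2 at the 58.1st, MDM4 and ZMAT3 at the 41.5th and 41.0th, and TP53I3, TP53INP1 and CCNG1 at the 16.2nd, 14.9th and 8.37th. The implied interval of PLK3 overlaps those of CDKN1A and AEN, that of ZMAT3 overlaps those of MDM2 and MDM4, and those of TP53I3, TP53INP1 and CCNG1 all overlap each other. Differences between genes were not tested. At least 2-fold and called, 3 members were higher and 1 lower, 4 of 9 beside 24.1% of all genes, and the same 4 are those that the authors' smaller table of 4021 genes retains. TP53INP1 and TP53I3 were just short of that size.

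**Figure D2:**
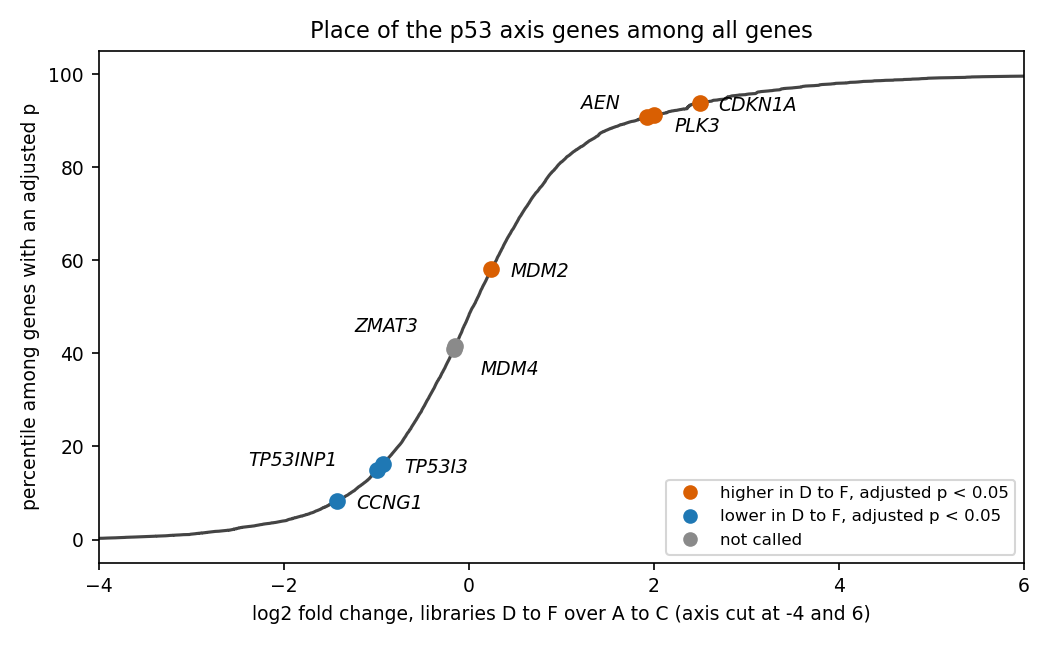
Percentile of each p53 axis gene (y axis) against its log2 fold change, libraries D to F over A to C (x axis), on the cumulative curve of all 15976 genes with an adjusted p; colour gives the call. CDKN1A, PLK3 and AEN sit above the 90th percentile, MDM2, MDM4 and ZMAT3 on the steep middle of the curve, and the other 3 genes below the 17th.

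Of the relatives of p53, TP63 was 2.78-fold higher in D to F (log2 fold change 1.48, implied standard error 0.538, adjusted p = 0.0119 in the authors' deposited table), and TP73 was at -0.15 on the log2 scale and not called (adjusted p = 0.236). Of 35 regulators of p53 with a value, 14 were higher, 7 lower and 14 not called, so that 60% were called beside 57.6% of all genes, with a median log2 fold change of 0.18. Those higher with the smallest adjusted p were the deacetylase SIRT1 (2.20), the phosphatase PPM1D (1.03), which switches off p53 signalling, the checkpoint kinases CHEK1 (0.89) and ATR (0.77), the ubiquitin ligase RCHY1 (0.98) and the methyltransferase SETD7 (0.69). Those lower included the deacetylase HDAC1 (-0.92), the kinase DYRK2 (-0.63), the p53-binding protein TP53BP1 (-0.49), the ligase HUWE1 (-0.94) and the kinase CHEK2 (-0.55). The damage kinase ATM (-0.04) was not called.

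Targets of p53 were counted by role, each list taken from general knowledge of the pathway. Like the other lists here, they were chosen with earlier results of these data known, so their counts are descriptive only. Values in parentheses are log2 fold changes in the authors' deposited table. The lists together hold 103 genes with an adjusted p, of which 40 were higher, 32 lower and 31 not called, and 69.9% were called beside 57.6% of all genes. Without the p53 axis genes among them (MDM4 is in none of these lists), 36 of 95 were higher and 29 lower (68.4% called).

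The list of cell cycle arrest targets had 10 of 14 genes higher and 2 lower (85.7% called, beside 57.6% of all genes), with a median log2 fold change of 1.48. Beside CDKN1A and PLK3 the genes higher included the growth arrest gene GADD45A (4.29), the Notch effector HES1 (3.53), the cytokine gene GDF15 (3.92) and PLK2 (2.05). The genes lower were CCNG1 and CCNG2, and GTSE1 (0.01) and RPRM (0.62) were not called. Several of these genes also answer to other stress factors.

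The list of cell death targets had 7 of 29 genes higher and 11 lower (62.1% called, beside 57.6% of all genes), with a median of -0.16. PMAIP1, which encodes the BH3 protein NOXA (2.25), AEN, the death receptor TNFRSF10B (0.60) and TRIAP1 (0.62) were higher. The apoptosome scaffold APAF1 (-1.63), EI24 (-1.42), CYFIP2 (-1.74), the caspase CASP6 (-1.47), TP53INP1 and the adaptor PYCARD (-1.24) were lower. The BH3 gene BBC3, which encodes PUMA (0.15, adjusted p = 0.559), BAX (-0.26, adjusted p = 0.0544) and PERP (0.20) were not called in the authors' deposited table.

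DNA repair and nucleotide supply targets were 5 higher and 2 lower of 12 (58.3% called, beside 57.6% of all genes), with a median of 0.14. The nucleotide excision repair gene DDB2 (1.37), RAD51C (1.05) and the polymerase POLK (0.79) were higher and the polymerase POLH (-0.55) and the methyltransferase MGMT (-0.46) lower, while XPC (0.09) and RRM2B (-0.05) were not called. Metabolic and autophagy targets were 4 higher and 8 lower of 19 (63.2% called, beside 57.6% of all genes), with a median of -0.11. IGFBP3 (1.31) and LPIN1 (0.76) were higher. The mTORC1 inhibitor DDIT4 (-2.56), the autophagy kinase ULK1 (-1.60), the lysosomal enzyme FUCA1 (-1.42), the sugar transporter SLC2A12 (-2.33) and ALDH4A1 (-1.23) were lower, and SESN1 was at -0.75. Feedback and other targets were 14 higher and 10 lower of 30 (80% called, beside 57.6% of all genes), with a median of 0.29. SERTAD1 (3.81), DUSP4 (2.08), BAIAP2 (1.69), DUSP5 (2.62) and PPM1D were higher, and TRIM22 (-2.07), NOTCH1 (-1.09), TNFRSF21 (-0.84) and CD82 (-2.39) were lower.

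**Figure D3:**
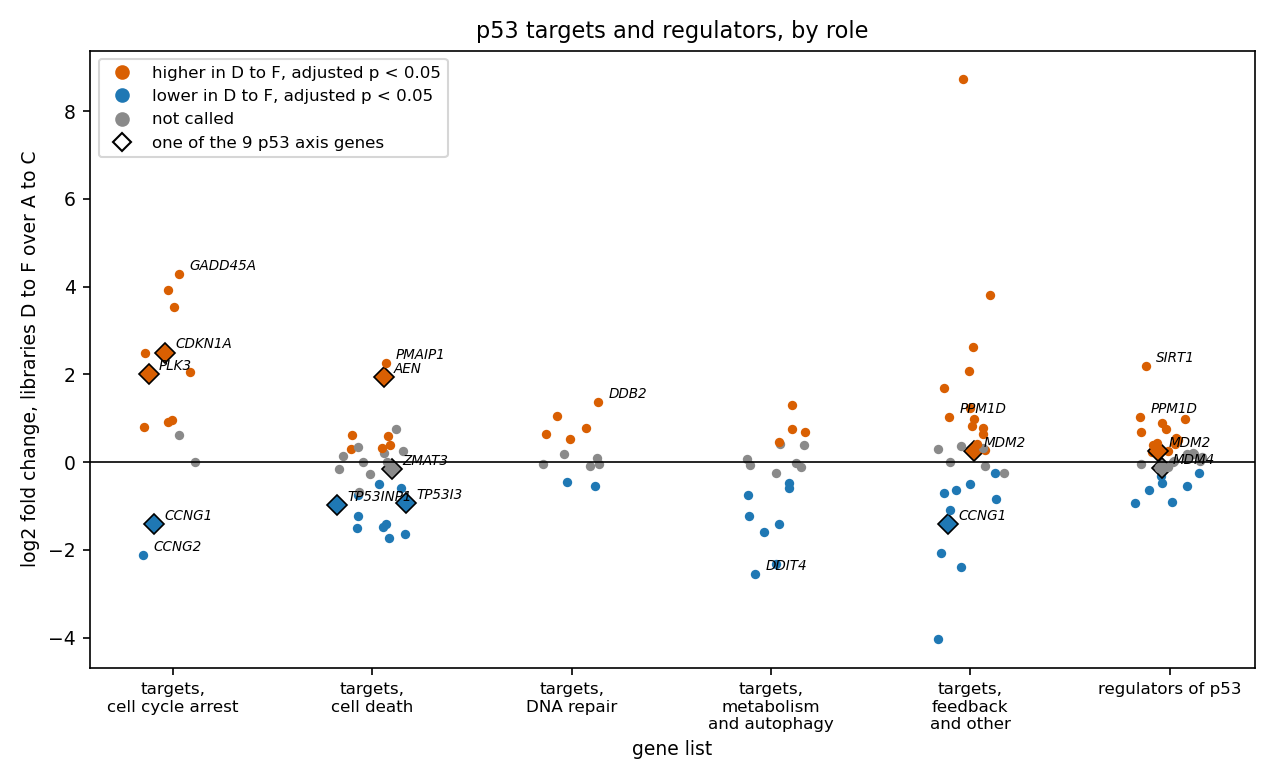
Log2 fold change, libraries D to F over A to C (y axis), of each gene with an adjusted p in the lists of p53 targets and regulators (x axis, jittered within a list); diamonds are p53 axis genes, colour gives the call, and a gene in several lists is drawn in each. Cell cycle arrest targets lie mostly above 0 (10 higher, 2 lower), while cell death targets lie on both sides (7 higher, 11 lower).

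Downstream of p21, genes that it represses through the DREAM complex and RB with E2F were called about as often as all genes. Of 24, 6 were higher (25.0%, beside 29.7% of all genes) and 7 lower (29.2%, beside 27.9%), with a median log2 fold change of -0.0014 and no called gene at 2-fold or more. CHEK1 (0.89), MCM5 (0.74) and CDC20 (0.65) were higher and LMNB1 (-0.98), FOXM1 (-0.76) and CENPF (-0.88) lower, whereas CDK1 (0.21), CCNB1 (-0.10) and TOP2A (0.03) were not called. Among 16 genes of the G1 kinases, their cyclins and inhibitors, 9 were higher and 4 lower (81.2% called, beside 57.6% of all genes). The inhibitors CDKN2B (1.88) and CDKN1B (0.76) were higher beside CDKN1A, CDKN2C (-1.09) was lower, RB1 (2.60) was higher and its relative RBL2 (-1.56) lower, and CDK2 (-0.81) and CDK4 (-0.21) were lower.

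**Figure D4:**
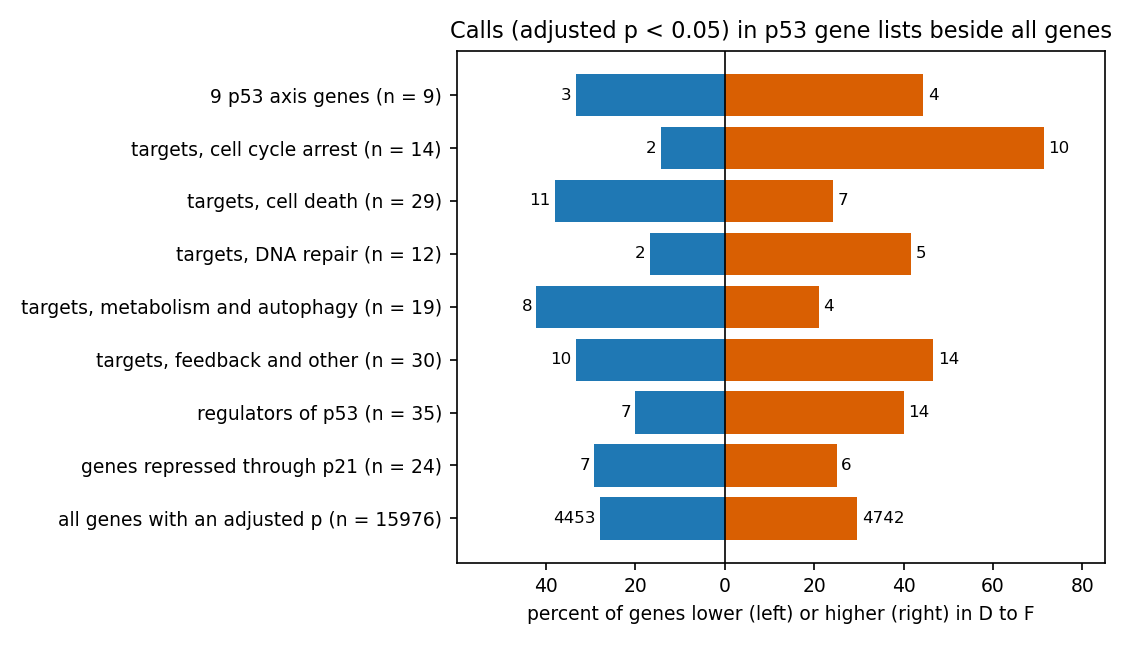
Percent of genes with an adjusted p that were called lower (bars to the left) or higher (bars to the right) in libraries D to F, for the p53 axis genes, lists of p53 targets and regulators, genes repressed through p21, and all genes; numbers at the bars are gene counts. All genes stand at 27.9% lower and 29.7% higher, cell cycle arrest targets at 14.3% and 71.4%.

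Some markers of cell identity were called in the same comparison, in which 57.6% of all genes were called. Of 10 genes listed for the identity of the H1048 line, 4 were higher and 4 lower (80% called). POU2F3 (-1.71), AVIL (-2.31), KIT (-1.96) and SOX9 (-1.25) were lower. The keratins KRT8 (1.24) and KRT18 (1.12), EPCAM (0.55) and GFI1B (0.54) were higher, and CHAT and TRPM5 were not called. Neuroendocrine genes were 2 higher of 3 (66.7% called), with SYP at 2.51 and INSM1 at 1.81. Fibroblast genes were 1 higher and 3 lower of 4 (100% called), and leukocyte genes 1 higher of 4 (25% called). Gene values are log2 fold changes in the authors' deposited table. Levels of these markers were not analysed here, and their part in the differences of the p53 axis genes was not tested.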

How the data were processed

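RNA was sequenced from 6 samples of H1048 cells, 3 with ISP-I and 3 with DMSO. Per the submitters' processing notes, Trimmomatic, STAR, HTSeq, DESeq2 and hg38 were used; their versions, the annotation and the strand setting are not stated there. The authors deposited, per the file headers, 3 values per gene that compare libraries D to F with A to C, namely the log2 fold change and the p-value with its adjusted form, and the direction is read from the order of the sets. Because the library letters match no label, 36 columns of per-library values, 18 of them in each table, were left out. The planned edgeR fit was therefore replaced by the authors' values, and depth per sample is not given.

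The 977 genes with an adjusted p of exactly 1 were treated as having none; Benjamini-Hochberg adjustment over the other 15976 returned the deposited values to within 1.2e-15. The smaller table was tested to hold the 4021 genes that differ by at least 1 on the log2 scale with a p under 0.05. Implied standard errors are the absolute log2 fold change divided by the normal quantile of the p; this step and the adjustment were tested on simulated data. Lists are described by counts and medians. All 9 members are named, with up to 6 genes of each list and direction by smallest adjusted p, and uncalled genes as examples; some genes that this takes are not reported here; members and lists were chosen with earlier results of these data known. Coordinates are those of GENCODE 29 (GRCh38), 1-based. Promoter sequences are RefSeq's on GRCh38.p14, found for 8 of 9 members, and motifs were searched in the 250 bases before each start. Python 3.11.15, pandas 2.3.3, numpy 2.4.6, scipy 1.17.1 and matplotlib 3.10.9 were used.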

Additional observations from a re-analysis of the deposited data

How the results depend on the processing

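Centring the fold changes on the median of all genes changed the direction of no member; the other alternatives change only the calls, not the fold changes. Adjustment over all genes of the table changed no member's call. With a minimum of 2-fold, 1 member was lower in D to F instead of 3, all genes called were 2052 higher and 1804 lower instead of 4742 and 4453, and p53 targets were 19 higher and 17 lower instead of 40 and 32. With Bonferroni adjustment, 2611 genes were higher and 2529 lower. MDM2 (log2 fold change 0.25) lost its call at an adjusted p under 0.01, with Bonferroni adjustment and with the 2-fold minimum, and TP53I3 and TP53INP1 lost theirs with the 2-fold minimum. These follow from the stricter rules themselves. No paired analysis was possible because no label ties the values per library to the samples and their replicate numbers. For the same reason the count tests with other normalization or filters, and those leaving out a replicate, were not run, and whether 1 library decides a value was not tested.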
